A study of Mus musculus with 68 samples.

Results

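Genes of glucose breakdown, lactate handling and the response to low oxygen were followed through the zones of the mouse growth plate. The set, named here glycolysis and hypoxia genes, was listed by symbol from what the genes are known to do, with earlier results of these data known, and all 38 were found among the 23420 symbols of the deposited count table. It holds glucose transporters, the enzymes of glycolysis, the lactate and pyruvate handling genes, the oxygen sensors, and genes known to be switched on when oxygen is low. At P28, 28 days after birth, the lactate exporter Slc16a3 was counted in 8 of 9 ethanol-fixed proliferative libraries, in 1 of 8 resting libraries (1 count) and in 0 of 9 hypertrophic libraries. Some animals gave several of these libraries, and many were shallow. In xylene-fixed sections of the same age Slc16a3 was also counted in the resting and hypertrophic zones. A further group of member genes was lower outside the proliferative zone.

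The growth plate is the cartilage at the end of a growing bone. Round resting chondrocytes give rise to columns of dividing, flat proliferative chondrocytes, which then enlarge into hypertrophic chondrocytes before bone replaces the cartilage. The tissue has no blood vessels of its own, and its chondrocytes are known to rely on glycolysis, ending in lactate, for much of their energy. When oxygen is low, the prolyl hydroxylases (Egln1, Egln3) no longer mark the transcription factors HIF-1 and HIF-2 for breakdown, and these factors then raise the transcription of glycolytic genes and of genes such as Pdk1, Vegfa and Adm. The classic binding element of these factors holds the core letters ACGTG or GCGTG.

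The libraries came from mice of a mixed background for which the labels give no altered gene and no treatment, and the groups compared here differ in zone, age or fixative. Sections 10 microns thick were laser-captured into the 3 zones at postnatal day 2 (P2), day 3 (P3) or day 28 (P28), and cDNA was made directly from the captured pieces without an RNA extraction step. There were 68 libraries. Of those fixed in ethanol, P2 gave 9 resting, 8 proliferative and 8 hypertrophic libraries, P28 gave 8, 9 and 9, and 1 P3 animal gave 1 of each zone. Fixation in xylene was used at P28 only, with 4 resting, 5 proliferative and 5 hypertrophic libraries. The label of P2 animal D and that of P28 animal B speak of animals in the plural, so these may be pools. Animal letters run separately within each age, and xylene animal D carries the same label as ethanol animal D of P28.

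Depth set the main limit. Libraries held 748 to 3347722 counts, and 3 symbols, Rn45s, Lars2 and Glra2, took 9.278% to 98.264% of them. Only libraries of at least 100000 counts were tested (26 of 51 ethanol libraries of P2 and P28), and libraries of one animal and zone were added up, which left 21 sums from 6 P2 and 3 P28 animals. Levels below are CPM, counts per 1000000 counts after TMM scaling, a factor that corrects each sum for its composition and ran from 0.191 to 2.003. Each change is a log2 fold change with its standard error from edgeR's quasi-likelihood test with the animal as a block, and "called" means a Benjamini-Hochberg adjusted p under 0.05 over all genes tested. P2 animals C, E and F had a single sum each. Under this block the zone differences at P2 therefore come from animals A, D and G alone. In pieces of tissue, fewer cells of a type and less RNA per cell cannot be told apart.

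Of the 68 libraries, 4 went against their own or their animal's other libraries in sex-linked counts. Of these 4, 2 entered the tests, a P28 proliferative library of animal D and the P2 resting library of animal G, the deepest of all. Counts of called genes without these 2 libraries are given where calls rest on them. The hypertrophic zone did carry its label's markers at P28: 8 hypertrophic marker genes summed to 68994 to 111968 CPM in hypertrophic sums and to 851 to 8979 CPM in resting sums. Animal A was at the top of that resting range. The lists held no markers of the proliferative zone. Summed levels of the 5 resting markers were 1185 to 1462 CPM in P28 resting sums and 1167 to 2180 CPM in P28 proliferative sums, so that list did not separate these zones at P28, although its member Pthlh was at 0 in the latter.

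Relative to the P28 proliferative zone, 4 genes of the set fell in the P28 resting zone: Slc16a3, which exports lactate, Ldha, which makes lactate from pyruvate, the glycolytic enzyme Aldoa, and Ndufa4l2, a mitochondrial protein known to lower the activity of respiratory complex I. In the P28 hypertrophic zone 4 fell against the proliferative zone: Slc16a3 again, its relative Slc16a1, the glycolytic enzyme Tpi1, and Car12, a carbonic anhydrase of the cell surface. All 8 of these differences ran the same way in 3 of 3 animals, but they were picked by tests on these same animals. This is therefore no separate support. Of the 915624 counts of animal D's proliferative sum, 613885 came from the library that went against its animal. That library had 267 Xist and 0 Y-linked counts, and the resting library of animal D had 0 and 76. Without the 2 libraries that went against their animals, the resting count of 4 became 0 and the hypertrophic count of 4 became 3. No gene of the set was called higher than in the proliferative zone in either comparison.

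Read against the table as a whole, 4 of 31 tested member genes were called in resting against proliferative at P28, where 0.561% of 6958 genes were called in either direction and 0.417% were called lower. In hypertrophic against proliferative the 4 of 31 stood beside 1.12% in either direction and 0.575% lower. At an unadjusted p under 0.05, 16 of 31 member genes were lower and 0 higher in the resting zone, against 8.64% of all genes lower and 10.5% in either direction. In the hypertrophic zone 10 of 31 were lower and 1 was higher, against 8.88% lower and 12.2% in either direction. Without the 2 libraries against their animals, 13 of 29 tested member genes were lower in the resting zone at that level (5.83% of all genes) and 6 of 29 in the hypertrophic zone (6% of all genes). The other 7 genes of the set (Slc2a3, Pfkfb4, Gapdh, Pgam1, Eno1, Egln3 and Ankrd37) did not pass the filter on low counts.

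The median log2 change of the tested member genes was -3.28 in resting against proliferative, with 28 of 31 negative, while the median of all genes was -0.81 with 66.3% negative. With genes at 0 in one zone set to their bound instead of their fitted value, these medians became -2.49 and -0.71. In hypertrophic against proliferative the medians were -2.05 for the member genes and -0.52 for all genes, or -1.75 and -0.47 at the bounds. Without the 2 libraries the fitted medians were -2.74 and -0.46 in resting, and -1.69 and -0.08 in hypertrophic against proliferative. The all-gene median depends on the scaling: DESeq2 moved it by 0.64 in resting against proliferative, to -0.17, with the member genes at -2.46 and 25 of 31 negative.

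**Figure D1:**
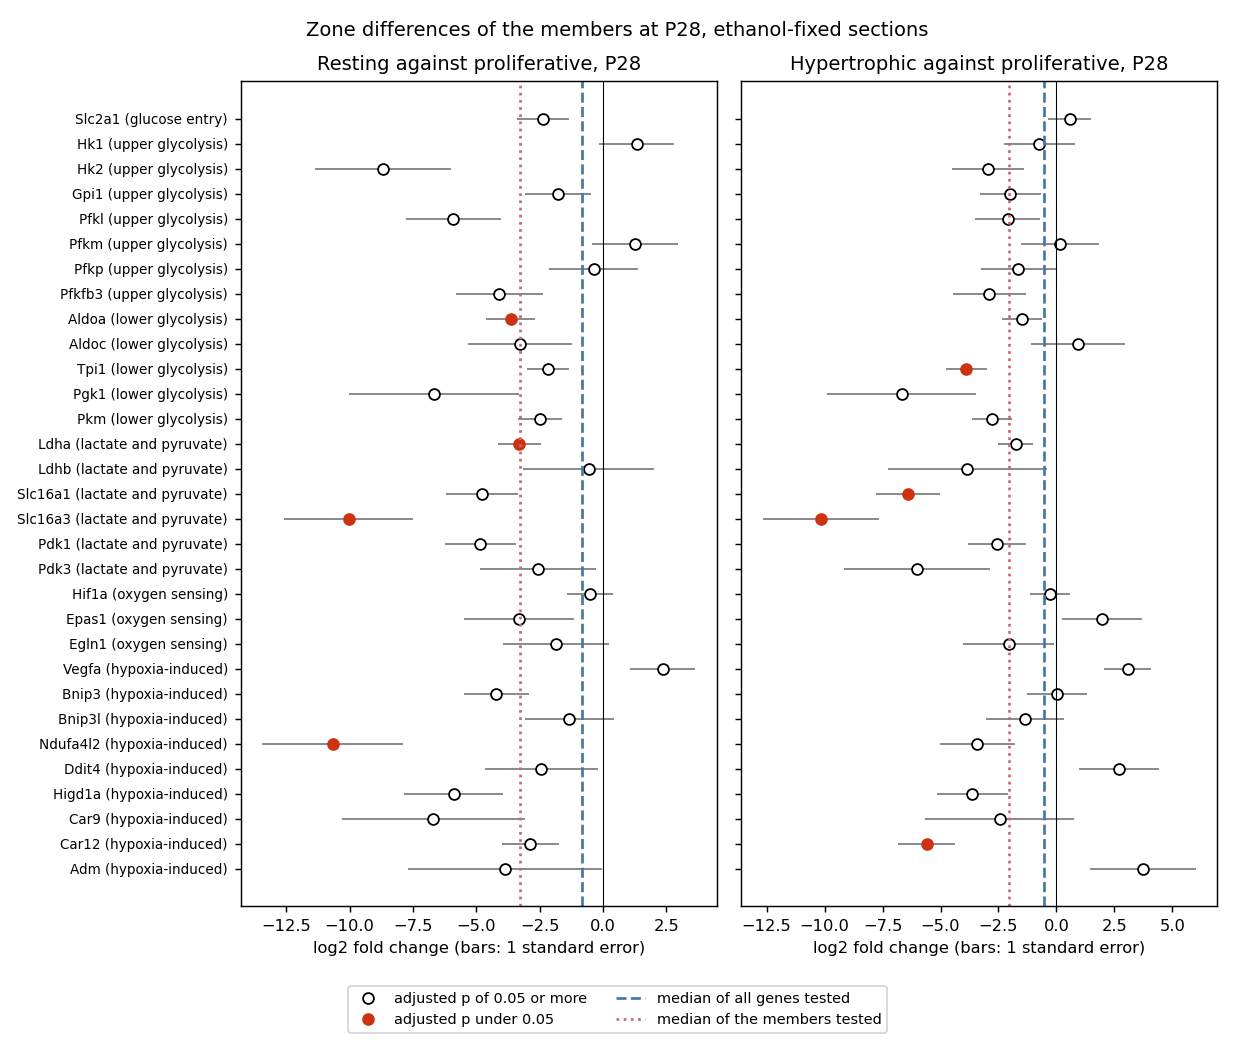
Log2 fold changes (horizontal axis, bars 1 standard error) of the 31 tested genes (vertical axis) in resting (left) and hypertrophic (right) against proliferative sums of the ethanol-fixed P28 growth plate. Filled points have an adjusted p under 0.05, and the dashed and dotted lines are the medians of all genes and of these 31. Most points lie left of 0 in resting against proliferative, with 28 of 31 negative. Points of genes at 0 in one zone rest on the model's prior count and are not bounds.

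Of the lactate and pyruvate genes tested at P28, 2 of 6 were called in each contrast with the proliferative zone. Of all genes, 0.561% were called in the resting and 1.12% in the hypertrophic contrast. Slc16a3 (also called MCT4) held 75.2, 129 and 201 CPM in the P28 proliferative sums of animals A, B and D, from 239 counts together. It had no count in any of the 3 resting or the 3 hypertrophic sums, so no sum overlapped. Against a floor of 3 counts over the group it was at least 28.9-fold lower in the resting zone and at least 38.2-fold lower in the hypertrophic zone (adjusted p = 0.0236 and 0.00952, edgeR quasi-likelihood test). Over all P28 ethanol libraries, shallow ones included, it had 247 counts in the 9 proliferative libraries, absent there only from one of 872 counts, 1 count in the 8 resting libraries and none in the 9 hypertrophic ones.

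Slc16a1 (MCT1), which carries lactate and pyruvate in either direction, held 94.0, 185 and 292 CPM in the proliferative sums of A, B and D and 32.1, 3.12 and 0 CPM in their hypertrophic sums. Its log2 change was -6.40 ± 1.39 (SE, adjusted p = 0.00164, edgeR). The resting sums did not repeat this, with 169 CPM in animal A and no count in B and D, and the resting difference of -4.78 ± 1.42 was not called (adjusted p = 0.0877).

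Ldha held 679, 658 and 551 CPM in the proliferative sums and 180, 25.4 and 27.2 CPM in the resting sums of the same animals. The log2 change was -3.30 ± 0.84 (adjusted p = 0.0236, edgeR), and no resting sum reached a proliferative one. Its hypertrophic levels, 88.4, 290 and 151 CPM, also lay below every proliferative sum, but that change of -1.76 ± 0.76 was not called (adjusted p = 0.316). Pdk1, the kinase that keeps pyruvate out of the mitochondrial citric acid cycle, held 179, 114 and 71.3 CPM in proliferative sums and 15.9, 0 and 0 CPM in resting sums, a change of -4.84 ± 1.40 that missed the threshold (adjusted p = 0.0731).

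Promoters of 5 of the 9 called genes, those of glycolysis and lactate handling, are shown. The core letters of the HIF element are marked where they occur, and the Tpi1 window holds none. Each is the RefSeq window of 300 bases, 250 before and 50 after the annotated start, on build GRCm38.p6 (the assembly of mm10), written 5′ to 3′ on the gene's strand. Capitals mark ACGTG or GCGTG on either strand (CACGT and CACGC are their reverse complements), and CACGTG counts for ACGTG on both strands.

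Ldha promoter, chr7:46845554-46845853, plus strand: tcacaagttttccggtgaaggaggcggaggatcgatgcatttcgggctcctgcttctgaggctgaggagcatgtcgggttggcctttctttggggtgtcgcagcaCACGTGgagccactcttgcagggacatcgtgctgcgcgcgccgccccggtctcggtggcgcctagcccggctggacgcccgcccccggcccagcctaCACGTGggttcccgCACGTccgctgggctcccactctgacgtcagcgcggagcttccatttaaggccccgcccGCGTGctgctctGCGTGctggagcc
Slc16a3 promoter, chr11:120948817-120949116, plus strand: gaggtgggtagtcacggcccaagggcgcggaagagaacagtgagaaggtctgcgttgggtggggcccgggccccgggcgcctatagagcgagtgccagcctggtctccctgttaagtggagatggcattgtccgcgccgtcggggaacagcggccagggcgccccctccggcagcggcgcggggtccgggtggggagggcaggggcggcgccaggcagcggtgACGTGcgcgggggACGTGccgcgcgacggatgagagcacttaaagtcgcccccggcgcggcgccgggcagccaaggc
Slc16a1 promoter, chr3:104638414-104638713, plus strand: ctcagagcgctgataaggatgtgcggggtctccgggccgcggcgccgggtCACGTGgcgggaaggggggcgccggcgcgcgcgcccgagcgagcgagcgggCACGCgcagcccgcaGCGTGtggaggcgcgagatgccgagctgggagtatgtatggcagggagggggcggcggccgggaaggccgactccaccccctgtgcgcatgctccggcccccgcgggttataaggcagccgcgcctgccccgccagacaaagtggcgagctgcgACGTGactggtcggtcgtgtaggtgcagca
Aldoa promoter, chr7:126799129-126799428, minus strand: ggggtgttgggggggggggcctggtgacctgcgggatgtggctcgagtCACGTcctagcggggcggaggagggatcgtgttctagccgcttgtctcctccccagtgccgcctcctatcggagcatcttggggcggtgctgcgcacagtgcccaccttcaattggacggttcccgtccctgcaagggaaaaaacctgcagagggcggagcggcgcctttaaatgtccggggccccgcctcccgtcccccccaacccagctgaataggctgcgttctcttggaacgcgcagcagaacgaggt
Tpi1 promoter, chr6:124814109-124814408, minus strand: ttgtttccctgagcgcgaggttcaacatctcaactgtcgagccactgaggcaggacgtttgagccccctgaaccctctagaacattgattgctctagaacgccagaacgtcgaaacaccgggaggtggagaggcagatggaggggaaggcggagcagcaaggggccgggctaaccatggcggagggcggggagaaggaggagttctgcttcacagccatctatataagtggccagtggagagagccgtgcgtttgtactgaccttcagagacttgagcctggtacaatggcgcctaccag

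The Ldha window shown holds ACGTG 5 times, 4 of them as 2 CACGTG palindromes, and GCGTG 2 times. The Slc16a3 window holds ACGTG 2 times, and the Slc16a1 window 3 times with GCGTG 2 times. Aldoa has 1 ACGTG in its window, and Tpi1 has neither motif. Of the called genes not shown, Car12 has neither motif, Adm and Pdk1 have GCGTG 2 times in a window and no ACGTG, and Ndufa4l2 had no window. RefSeq windows were matched for 34 of the 38 genes (none for Slc2a3, Epas1, Bnip3l and Ndufa4l2). Of these 34, 24 (70.6%) had ACGTG in at least 1 window, against 21.8% of 27025 symbols, and 31 (91.2%) had either motif, against 46.7%. Per window the shares were 56.2% and 19.6% for ACGTG. The members' windows were also richer in G and C, with a median of 62.2% against 52.7%, and the part of base composition in the motif shares was not tested. The set includes genes listed because they are known to respond to low oxygen. A higher share of this motif than over all symbols is therefore not an independent result.

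Among the enzymes that split and reshape the sugar, Aldoa, which cuts fructose bisphosphate into triose phosphates, held 296, 405 and 510 CPM in the P28 proliferative sums of A, B and D. The resting sums held 68.8, 20.3 and 23.3 CPM. The change of -3.64 ± 0.96 was called (adjusted p = 0.0313, edgeR), while the hypertrophic levels of 225, 59.3 and 237 CPM lay in between and below every proliferative sum.

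Tpi1, which interconverts the products of that cut, held 343, 338 and 674 CPM in the proliferative sums and 8.03, 21.8 and 74.0 CPM in the hypertrophic sums. It fell by 3.88 ± 0.90 on the log2 scale (adjusted p = 0.00402, edgeR). Resting sums, at 68.8, 127 and 85.5 CPM, were below every proliferative sum as well, and that change of -2.16 ± 0.83 was not called (adjusted p = 0.283). Pkm, which makes pyruvate in the last step that yields ATP, held 346, 352 and 918 CPM in proliferative, 106, 122 and 31.1 CPM in resting and 56.2, 65.5 and 106 CPM in hypertrophic sums. Neither change of Pkm was called (adjusted p = 0.222 and 0.0762).

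The steps before the cut were lower in count and less uniform. Hk2, a hexokinase that traps glucose in the cell, held 18.8, 98.4 and 38.9 CPM in P28 proliferative sums, no count in resting sums and 8.03, 18.7 and 0 CPM in hypertrophic sums. The phosphofructokinase Pfkl held 42.3, 72.4 and 171 CPM in proliferative and 0, 5.07 and 0 CPM in resting sums. Pfkfb3, which makes the activator of phosphofructokinase, held 98.7, 55.4 and 140 CPM in proliferative sums and at most 31.7 CPM in resting and 21.8 CPM in hypertrophic sums. Hk1, another hexokinase, held 26.5, 112 and 132 CPM in resting and 30.6, 45.2 and 21.6 CPM in proliferative sums, and was not called (1.32 ± 1.48, adjusted p = 0.801, edgeR). Of the 7 enzymes of these steps tested, 0 were called in either comparison, beside 0.561% and 1.12% of all genes, and 3 were lower in the resting zone at an unadjusted p under 0.05, beside 8.64% of all genes. Slc2a1, the main glucose transporter of many cells, held 132, 172 and 43.2 CPM in proliferative, 31.7, 0 and 46.6 CPM in resting and 88.4, 178 and 331 CPM in hypertrophic sums, which overlapped.

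**Figure D2:**
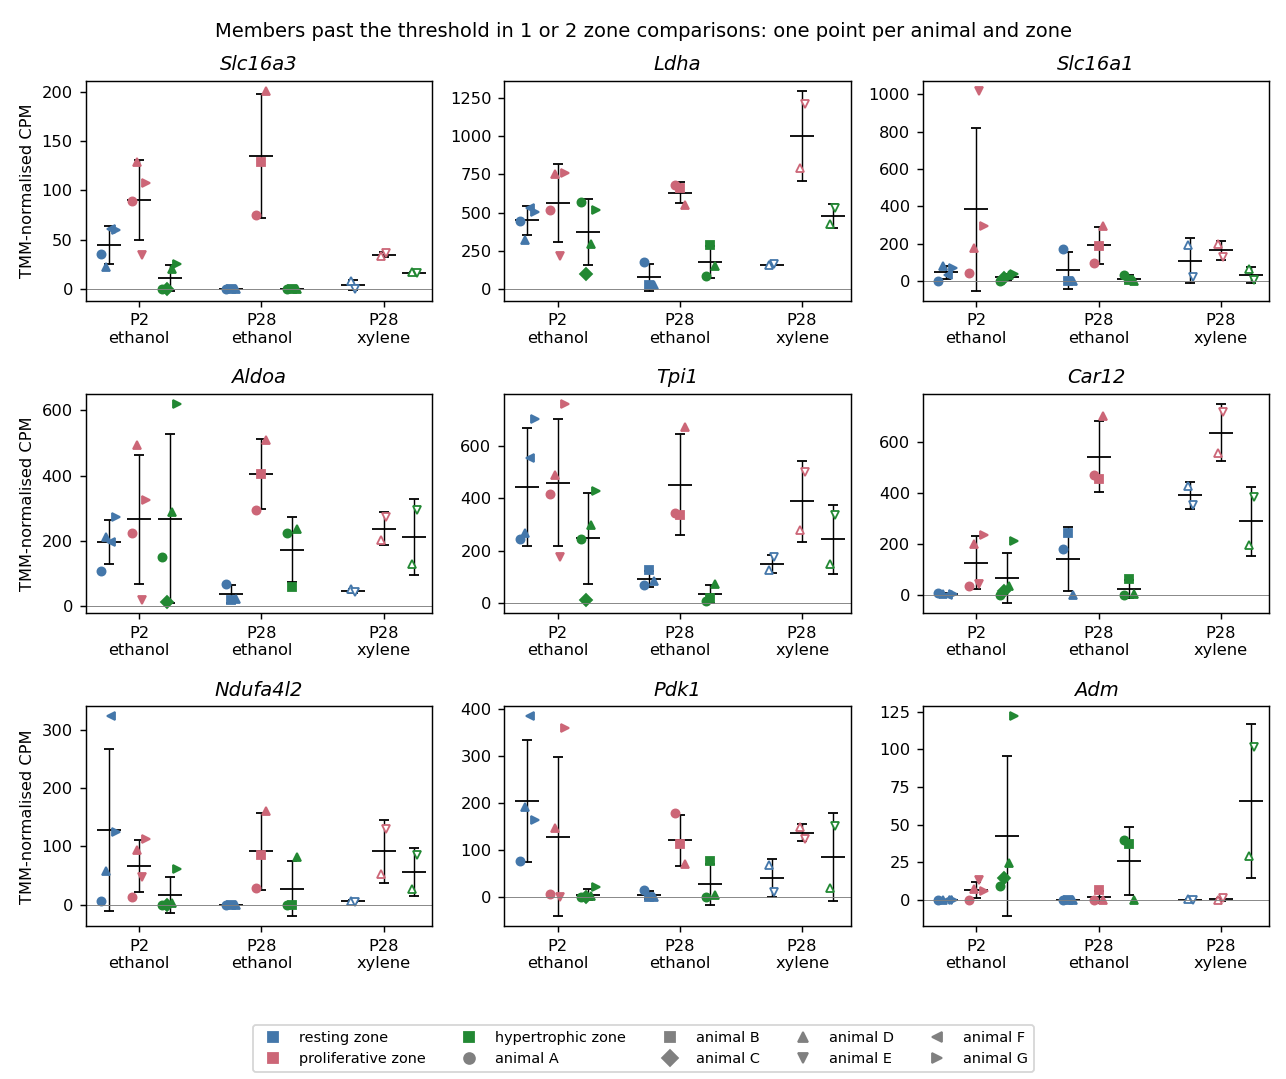
TMM-normalised CPM (vertical axes, linear) of the 9 called genes, one point per animal and zone sum, by age and fixative (horizontal axis) and zone (colour), with the mean and SD as a line and bars. Slc16a3 at P28 in ethanol lies at 75.2 to 201 CPM in the proliferative zone and at 0 in both other zones, whereas at P2 its resting and proliferative sums overlap. Animal letters run separately within each age.

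Genes known to respond to low oxygen split between zones at P28. Ndufa4l2 held 28.2, 84.8 and 160 CPM in proliferative sums and no count in the 3 resting sums, at least 19.5-fold lower (floor of 3 counts over the group, adjusted p = 0.0276, edgeR). In hypertrophic sums it was at 0 in animals A and B and at 81.4 CPM in D. Car12 held 470, 456 and 704 CPM in proliferative sums, 0, 62.4 and 4.94 CPM in hypertrophic sums and 180, 243 and 0 CPM in resting sums. It fell by 5.60 ± 1.22 on the log2 scale in the hypertrophic zone (adjusted p = 0.00164, edgeR) and was not called in the resting zone (-2.87 ± 1.13, adjusted p = 0.307).

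Vegfa, the growth factor that draws in blood vessels, and Adm, a peptide that widens them, leaned towards the hypertrophic zone against the proliferative. Neither was called there. Vegfa held 289, 403 and 158 CPM in P28 hypertrophic sums and 32.9, 64.5 and 2.16 CPM in proliferative sums, with no overlap and a change of 3.08 ± 1.01 that was not called (adjusted p = 0.116, edgeR). Resting sums of Vegfa were scattered, at 84.7, 0 and 455 CPM. Adm held 40.2, 37.5 and 0 CPM in hypertrophic sums and 0, 6.79 and 0 CPM in proliferative sums. Ddit4, an inhibitor of mTORC1 signalling, was at 96.4, 65.5 and 29.6 CPM in hypertrophic sums, above every proliferative sum (23.5, 4.52 and 4.32 CPM), and was not called. The share of all genes with every hypertrophic sum above every proliferative sum was not computed. Bnip3, a receptor for the removal of mitochondria, held 134, 132 and 23.8 CPM in proliferative, 16.1, 46.8 and 355 CPM in hypertrophic and 15.9, 0 and 3.89 CPM in resting sums. The xylene sums of animal D held 30.5 CPM of Vegfa in the hypertrophic and 25.7 CPM in the proliferative zone. For Ddit4 these were 1.58 and 2.32 CPM, the reverse of the ethanol order. By mean CPM in xylene, Ddit4 was highest in the resting zone and Vegfa in the hypertrophic zone.

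The oxygen sensors themselves showed no called difference. Hif1a, the oxygen-controlled part of HIF-1, held 233, 196 and 134 CPM in proliferative, 407, 60.9 and 81.6 CPM in resting and 329, 140 and 86.4 CPM in hypertrophic sums, all of which overlapped. Its log2 changes were -0.50 ± 0.91 and -0.28 ± 0.88 against the proliferative zone. Epas1, the oxygen-controlled part of HIF-2, held 40.2, 122 and 24.7 CPM in hypertrophic sums against 0, 5.07 and 0 CPM in resting sums, a change of -5.27 ± 2.08 from hypertrophic to resting that was not called (adjusted p = 0.201). Egln1 was at 23.5, 39.6 and 0 CPM in proliferative and at no more than 15.9 CPM in the other ethanol P28 sums.

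**Figure D3:**
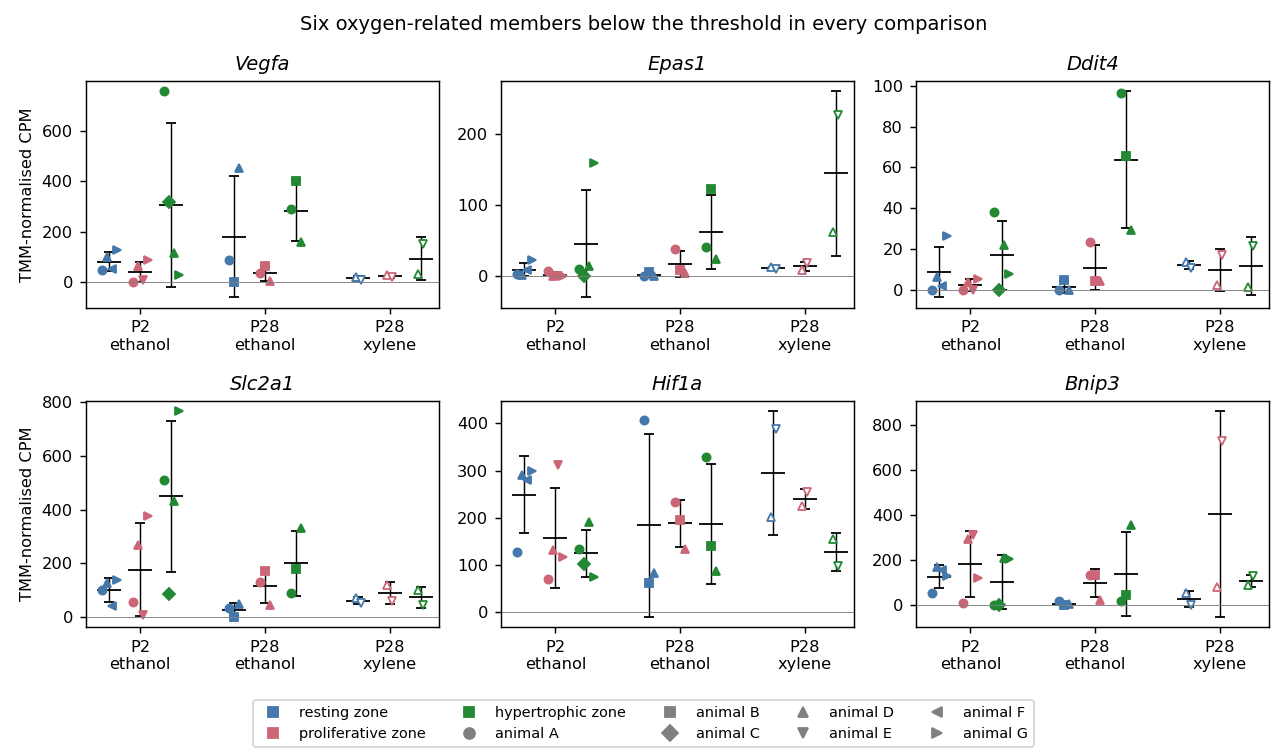
TMM-normalised CPM (vertical axes, linear) of Vegfa, Epas1, Ddit4, Slc2a1, Hif1a and Bnip3, none of them called, one point per animal and zone sum by age and fixative (horizontal axis) and zone (colour), with the mean and SD. At P28 in ethanol the hypertrophic sums of Vegfa (158 to 403 CPM) and Ddit4 (29.6 to 96.4 CPM) lie above all proliferative sums, while those of Hif1a overlap. Animal letters run separately within each age.

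Counting each gene's zone of highest mean CPM at P28 put 25 of the 37 genes with counts in the proliferative zone, 9 in the hypertrophic zone (Adm, Aldoc, Bnip3, Ddit4, Epas1, Gapdh, Pfkfb4, Slc2a1 and Vegfa) and 3 in the resting zone (Hk1, Pfkm and Slc2a3). This tally includes genes near 0, such as Gapdh and Slc2a3, and was not made for all genes. Of all tested genes, 66.3% had a negative log2 change in resting and 60.4% in hypertrophic against proliferative. Every resting sum lay below every proliferative sum for 16 of 31 tested member genes, beside 14.7% of all tested genes, and every hypertrophic sum did so for 13 of 31, beside 13.8%. Both counts include Pgk1, a gene of few counts whose coding words of 31 bases all occur in other genes. Without the 2 libraries against their animals these counts were 12 of 29, beside 7.54%, and 9 of 29, beside 8.5%. Of the 38 genes, 10 had no count in any P28 resting sum, 8 had none in any hypertrophic sum and 3 had none in any proliferative sum. The share of all genes at 0 was not computed. Outside the 3 dominant symbols, resting sums held 73137 to 142839 counts, hypertrophic sums 63547 to 319008 and proliferative sums 225849 to 472456. The part of depth in these zeros was not tested. Per kilobase of exon, the highest levels in the P28 proliferative zone were those of Ldha (190 ± 20.8 CPM per kb, SD, n = 3), Tpi1 (164 ± 69.9), Aldoa (139 ± 36.7) and Pkm (108 ± 65.8).

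A share of counts, which needs no TMM scaling, was also highest in the proliferative zone. Added up, the 38 genes held a median of 0.705% (0.624% to 1.17%) of the counts outside the 3 dominant symbols in the 9 P28 proliferative ethanol libraries. The median was 0.223% (0.0939% to 0.409%) in the 8 resting libraries and 0.280% (0.222% to 0.505%) in the 9 hypertrophic ones, so the proliferative libraries overlapped neither. By animal, A, B and D had 0.665%, 0.730% and 0.644% in the proliferative zone, 0.409%, 0.207% and 0.184% in the resting zone, and 0.272%, 0.284% and 0.258% in the hypertrophic zone. The 5 most counted genes (Ldha, Tpi1, Pkm, Aldoa and Car12) made up 52.5% of the set's counts over all libraries.

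**Figure D4:**
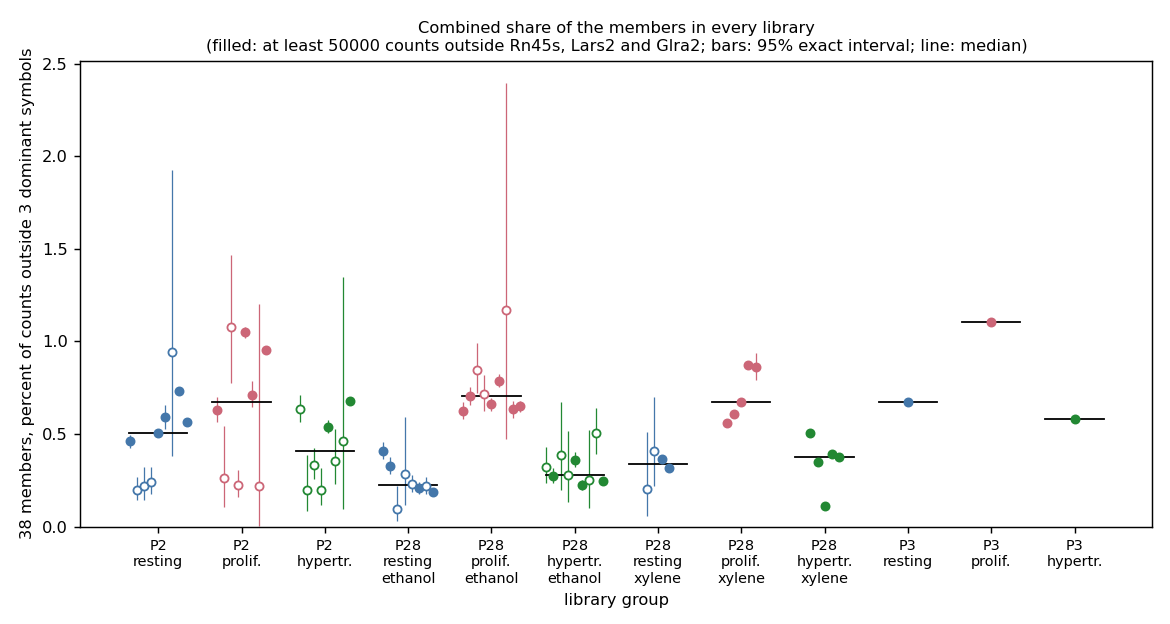
Counts of the 38 genes together as a percent of counts outside Rn45s, Lars2 and Glra2 (vertical axis) in each of the 68 libraries (points with 95% exact binomial intervals, which cover counting error only), grouped by age, zone and fixative (horizontal axis). Filled points have at least 50000 counts outside the 3 symbols. Lines are medians, 0.705% in the P28 proliferative ethanol libraries against 0.223% in resting and 0.280% in hypertrophic ones.

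Both P28 results depended on single libraries or animals. Without the 2 libraries that went against their animals in sex-linked counts, 0 member genes were called in resting against proliferative, with adjusted p of 0.183 for Ndufa4l2, 0.0778 for Slc16a3, 0.169 for Ldha and 0.363 for Aldoa. In hypertrophic against proliferative 3 remained called, Slc16a3, Tpi1 and Car12, and Slc16a1 had an adjusted p of 0.238. Leaving out P28 animal B gave 0 and 1 called genes (Car12) in resting and in hypertrophic against proliferative, leaving out animal D gave 0 and 1 (Tpi1), and leaving out animal A gave 2 (Ldha and Slc16a1) and 1 (Slc16a1). Without P2 animal D the resting count became 0, and without P2 animal G it became 1 (Slc16a3).

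Markers of other cells moved with zone to differing degrees. The 9 chondrocyte markers in the table were all detected in each group, and their summed level was 40989 to 66799 CPM in P28 resting sums, 113605 to 197061 CPM in proliferative sums and 66678 to 176961 CPM in hypertrophic sums. The 8 hypertrophic markers reached 2960 to 7362 CPM in proliferative sums. Of 10 muscle markers, 5 were detected in resting and 7 in proliferative sums, at 11.7 to 20.3 and 17.3 to 27.1 CPM, and Ckm, Myh8 and Mb were at 0 in both. Red blood cell markers (7 of 10 in the table) summed to 20.3 to 707 CPM in resting, 8.64 to 30.6 CPM in proliferative and 7.40 to 96.8 CPM in hypertrophic sums, with Hba-a1 and Hba-a2 at 0. Of 8 osteoblast markers 3 were detected in resting, 5 in proliferative and 4 in hypertrophic sums (Bglap2 and Bglap3 at 0 in all), and they held 62.2 to 228 CPM in resting, 454 to 694 CPM in proliferative and 313 to 1187 CPM in hypertrophic sums, and the 6 fibroblast and perichondrium markers (5, 5 and 4 detected) 81.6 to 573, 318 to 804 and 185 to 1140 CPM. The 6 endothelial markers were at 0 to 37.0 CPM with Cdh5, Kdr and Emcn at 0, the 7 macrophage and osteoclast markers at 0 to 47.01 CPM with Cd68 and Csf1r at 0, and the 4 fat markers all at 0. The part of these cells in the results was not tested.

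At P2 the called genes were Pdk1 and Adm. Pdk1 was higher in resting than in hypertrophic sums and Adm was lower, and these were the 2 of 31 called in resting against hypertrophic, where 3.77% of all genes were called. Pdk1 held 76.6, 193, 384 and 164 CPM in the resting sums of animals A, D, F and G and 0, 0, 2.46 and 22.0 CPM in the hypertrophic sums of A, C, D and G. The groups did not overlap, and the change was 4.98 ± 1.41 (adjusted p = 0.0182, edgeR, higher in 3 of 3 animals with both zones). Adm held 0, 0, 0 and 0.358 CPM in resting sums (2 counts in all, both in animal G) and 9.49, 14.4, 24.6 and 122 CPM in hypertrophic sums. The pooled resting level was 0.00216 times the hypertrophic one (95% counting interval 0.000260 to 0.00788), and the fitted change was called at an adjusted p of 0.0499 (edgeR, lower in 3 of 3 animals).

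Without the libraries that went against their animals, which removes animal G's resting sum, 0 member genes were called in that contrast. Pdk1 then had an adjusted p of 0.0638 and Adm did not pass the filter. Fibroblast and perichondrium markers were also higher in P2 resting sums (662 to 4675 CPM) than in P2 hypertrophic sums (72.1 to 333 CPM), with Thbs4 at 0 in both, and red blood cell markers lower (0.908 to 134 against 14.8 to 735 CPM). Their part in the result was not tested.

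Neither contrast with the P2 proliferative zone had a called member gene. In resting against proliferative 0 of 31 were called (0.259% of all genes), 3 had an unadjusted p under 0.05 (4.14% of all genes) and DESeq2 called 0. Car12 came closest, with 8.20, 3.63, 0 and 4.83 CPM in the resting sums of A, D, F and G and 34.2, 198, 40.7 and 234 CPM in the proliferative sums of A, D, E and G, no overlap, and an adjusted p of 0.0752. In hypertrophic against proliferative 0 of 31 were called (2.31% of all genes), 5 had an unadjusted p under 0.05 (14.2%) and DESeq2 called 1, Pdk1. At an unadjusted p under 0.05, 5 of 31 differed in resting against hypertrophic, beside 16.6% of all genes.

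Slc16a3 at P2 was counted in every resting sum (35.5, 21.8, 60.97 and 60.1 CPM in A, D, F and G) and every proliferative sum (88.9, 129, 33.9 and 108 CPM in A, D, E and G), and in 2 of 4 hypertrophic sums (0, 0, 19.7 and 24.8 CPM in A, C, D and G). Ldha at P2 held 320 to 530 CPM in resting and 217 to 762 CPM in proliferative sums, which overlapped. Ndufa4l2 was at 5.47 to 322 CPM in P2 resting sums, a zone where it had no count at P28.

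Other genes called at P28 were spread widely within the P2 zones. Tpi1 held 246, 267, 555 and 705 CPM in the resting sums of A, D, F and G, 417, 489, 176 and 761 CPM in the proliferative sums of A, D, E and G and 247, 14.4, 298 and 430 CPM in the hypertrophic sums of A, C, D and G. In the same order Aldoa held 109, 212, 197 and 273 CPM, then 226, 493, 20.3 and 325 CPM, then 152, 14.4, 288 and 620 CPM. The P2 sums of Tpi1 and of Aldoa overlapped between all zones. Slc16a1 was at 0 to 79.9 CPM in resting, 41.04 to 1017 CPM in proliferative and 0 to 35.4 CPM in hypertrophic sums, with P2 animal E at the top and the hypertrophic sums below every proliferative one. Of the oxygen-related genes at P2, Vegfa reached 759, 317, 116 and 24.8 CPM in hypertrophic sums of A, C, D and G against 0 to 84.8 CPM in proliferative sums, and Slc2a1 held 512, 86.5, 431 and 769 CPM against 54.7, 268, 6.78 and 375 CPM in the proliferative sums of A, D, E and G. Car9, a carbonic anhydrase that is a classic HIF-1 target, had no count in any P2 hypertrophic sum and 0 to 47.9 CPM in proliferative sums (adjusted p = 0.0622, edgeR).

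By highest mean, 17 of 37 genes peaked in the P2 proliferative zone, 10 in the resting and 10 in the hypertrophic zone. The tally was not made for all genes. Of all genes tested at P2, 45% had a negative log2 change in resting and 57.1% in hypertrophic against proliferative. The combined share had a median of 0.505% in resting, 0.671% in proliferative and 0.410% in hypertrophic P2 libraries, with ranges that overlapped. The single P3 animal had 0.672%, 1.11% and 0.583%, in that order.

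Whether a zone difference itself changed with age was tested as an interaction, and 0 of 31 member genes passed in any of the 3. For resting against proliferative 0.144% of all genes were called, 8 member genes had an unadjusted p under 0.05 (6.78% of all genes), all of them with a more negative difference at P28, and DESeq2 called 0. Slc16a3 was among these 8 with -8.52 ± 3.11 (adjusted p = 0.623, edgeR) and Ndufa4l2 with -10.04 ± 3.29 (adjusted p = 0.328, edgeR), fitted values that rest on zeros. For hypertrophic against proliferative 0% of genes were called, 3 member genes had an unadjusted p under 0.05 (5.94%) and DESeq2 called 1, Tpi1. For resting against hypertrophic 0.273% of all genes were called, 8 member genes had an unadjusted p under 0.05 (9.86%) and DESeq2 called 1, Pdk1 (-7.26 ± 2.10, adjusted p = 0.108 in edgeR). The difference between the ages in the zone effect on Slc16a3, Ldha or Ndufa4l2 was therefore not shown by these tests.

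Comparing the ages within one zone rests on sums that share no animal, and 0 member genes were called. In the resting zone 0 of 23 were called (0.872% of all genes), 11 had an unadjusted p under 0.05 (10.1%), and DESeq2 called 5 (2.74% of all genes), of which Bnip3, Hk2, Ndufa4l2 and Pdk1 were lower and Hk1 was higher at P28. The median change there was -2.41 for the 23 genes and -0.53 for all genes. Hk1 held 26.5, 112 and 132 CPM at P28 and 0, 8.17, 16.3 and 13.4 CPM at P2, with no overlap, and a change of 3.84 ± 1.29 (adjusted p = 0.206, edgeR). In the proliferative zone 0 of 25 were called (0.679%), 2 had an unadjusted p under 0.05 (5.62%) and DESeq2 called 1, Pfkp. The median change there was 0.16 for the member genes and 0.04 for all genes. In the hypertrophic zone 0 of 12 were called (0.102%), 1 had an unadjusted p under 0.05 (5.25%) and DESeq2 called 1, Tpi1.

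Resting against hypertrophic at P28 also had 0 of 31 called (1.77% of all genes), with 9 at an unadjusted p under 0.05 (13.7%), and DESeq2 called 1, Tpi1. Among the 9, Slc2a1, Bnip3, Epas1, Ddit4 and Aldoa were lower in the resting zone in 3 of 3 animals, with adjusted p of 0.101, 0.0826, 0.201, 0.238 and 0.236 (edgeR).

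The xylene-fixed P28 libraries gave 6 sums from 2 animals, with 12 of 14 libraries. They were fitted in one model with the ethanol sums, with zone effects of their own and a shared estimate of the spread, so the p-values draw on both fixatives. No member gene was called: 0 of 34 in resting against proliferative (0.14% of all genes), 0 of 34 in hypertrophic against proliferative (0.14%) and 0 of 34 in resting against hypertrophic (0.448%). At an unadjusted p under 0.05 there were 8 (4.12% of all genes), 2 (3.93%) and 4 (6.57%), and DESeq2 called 0 in each. All 8 of the first contrast were lower in the resting zone, led by Ldha (-2.61 ± 0.92, adjusted p = 0.769, edgeR).

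Levels by sample followed the ethanol layout for several genes. Ldha held 795 and 1209 CPM in the xylene proliferative sums of animals D and E, 156 and 164 CPM in resting and 425 and 532 CPM in hypertrophic sums. Slc16a3, absent from the ethanol resting and hypertrophic sums, was counted in xylene, at 33.0 and 36.3 CPM in proliferative, 7.70 and 0 CPM in resting and 16.6 and 15.8 CPM in hypertrophic sums. Its pooled hypertrophic level was 0.484 times the proliferative one (95% counting interval 0.394 to 0.594), against the bound of at least 38.2-fold lower in ethanol. Tpi1 held 150 and 338 CPM in hypertrophic and 281 and 499 CPM in proliferative xylene sums, and Car12 194 and 386 CPM against 558 and 718 CPM. The difference between fixatives was not tested for these genes.

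Adm was at 29.4 and 102 CPM in xylene hypertrophic sums and at no more than 1.38 CPM in the other xylene sums, a change of 6.77 ± 2.38 against the proliferative zone (adjusted p = 0.627, edgeR). The xylene hypertrophic sum of animal D stood apart in markers of other cells. Osteoblast markers (7 of 8 detected, Bglap3 at 0) summed to 52942 CPM in D and 625 CPM in E, against 362 to 699 CPM in the proliferative sums. Fibroblast and perichondrium markers summed to 13574 CPM in D and 1025 CPM in E, against 730 to 1725 CPM, and macrophage and osteoclast markers to 100.6 and 30.96 CPM, against 6.95 to 16.1 CPM. The part of these cells in the xylene values was not tested. The combined share had a median of 0.674% (0.558% to 0.873%) in the 5 xylene proliferative libraries, above all 4 resting (0.201% to 0.409%) and all 5 hypertrophic libraries (0.111% to 0.507%). In xylene 27 of 38 genes had their highest mean in the proliferative zone, 6 in the hypertrophic and 5 in the resting zone. The tally was not made for all genes. Of all genes tested in xylene, 51.8% had a negative log2 change in resting and 49.6% in hypertrophic against proliferative.

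Other genes of the same pathways were listed for comparison. Of 43 further glycolysis and pyruvate genes, 19 were tested, and 1 was called in resting against proliferative at P28: Bsg, the partner that brings Slc16a1 and Slc16a3 to the cell surface, was lower by a log2 change of -3.26 ± 0.87 (adjusted p = 0.0343, edgeR), in a contrast where 0.561% of all genes were called. None of these 19 was called in the other zone contrasts of ethanol libraries. Of 44 further oxygen-related genes, 29 were tested, in contrasts where 2.31% (hypertrophic against proliferative at P2), 3.77% and 1.77% (resting against hypertrophic at P2 and P28) of all genes were called. At P2, Plod2, which modifies collagen, was lower in hypertrophic than in proliferative sums (-2.74 ± 0.73, adjusted p = 0.0143, edgeR). Lox, which cross-links collagen, was called lower in resting than in hypertrophic sums (adjusted p = 0.0374, edgeR). Its levels overlapped, at 0, 0, 25.7 and 0 CPM in the resting sums of A, D, F and G. The hypertrophic sums of A, C, D and G held 9.49, 0, 46.8 and 20.5 CPM, and animal F had no hypertrophic sum. Ppp1r3c, a glycogen-targeting subunit, was higher in resting than in hypertrophic sums (adjusted p = 0.00580, edgeR). Ppp1r3c was called in the same direction at P28 (adjusted p = 0.0428). In xylene Fam162a was lower in resting than in proliferative sums (-5.24 ± 1.28, adjusted p = 0.0380).

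Several textbook genes of the set could not be read from these counts. Over all 68 libraries Eno1 had 3 counts and Gapdh 82, although both are among the most abundant transcripts of most cells. In the reference transcripts, 89.5% of the 31-base words of the Eno1 coding sequence and 94.3% of those of Gapdh also occur in other genes, and 321 pseudogenes share a word with Gapdh. Pgam1 (100% shared, 203 counts) and Pgk1 (100%, 997 counts) were low as well. By sum, Gapdh stayed at or below 9.36 CPM in every P2, P28 and xylene sum, and Eno1 was counted in 1 of these sums, the xylene hypertrophic sum of animal D (0.396 CPM).

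Other members were low too. Pgk1, which yields ATP midway through glycolysis, held 11.8, 7.92 and 19.4 CPM in the P28 proliferative sums of A, B and D and no count in the P28 resting and hypertrophic sums. Ldhb, the partner subunit of Ldha, was at 0 to 5.29 CPM in P28 ethanol sums and at 60.1, 40.9, 11.3 and 15.6 CPM in the P2 resting sums of A, D, F and G. Egln3, a hydroxylase gene that is itself switched on by HIF-1, was counted in 1 P28 ethanol sum (2.26 CPM, proliferative, animal B) and at up to 25.7 CPM in P2 resting sums. How reads with several matching places were counted is not given in the sources used here.

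High sharing did not always go with a low count. Bnip3 (90.6% shared, 7645 counts), Pkm (78.1%, 18261 counts) and Ldha (57.5%, 28875 counts, the most of the set) were counted well, while Aldoa and Tpi1 shared 41.4% and 31.6%. Slc16a3, Slc16a1, Ndufa4l2, Car12, Pdk1 and Adm shared no coding word of this length with another gene. The exons of Ndufa4l2 overlap those of Shmt2 on the other strand by 32 bases, those of Tpi1 overlap Spsb2 by 34 bases and those of Aldoa overlap Fam57b by 25 bases. Whether counting used strand is not given in the sources used here.

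**Figure D5:**
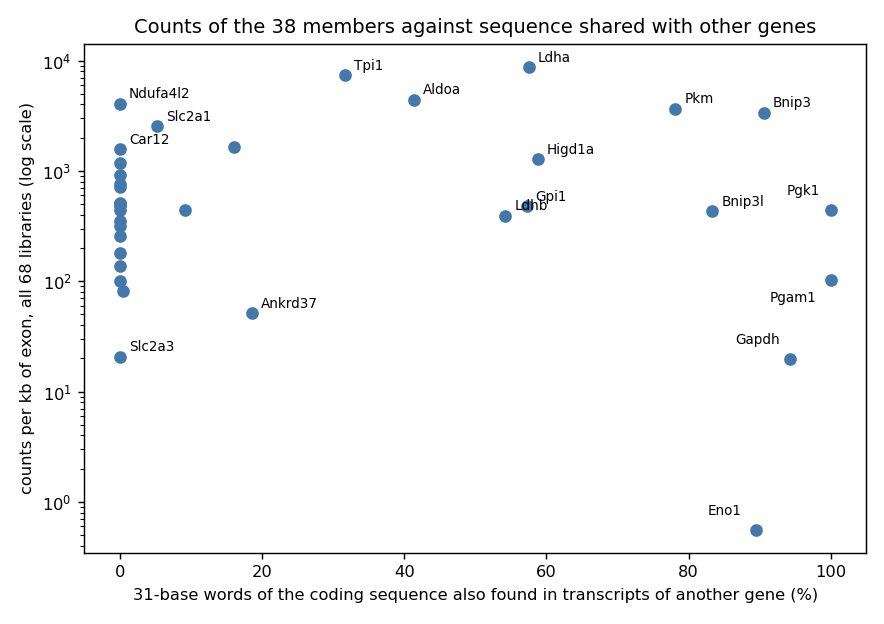
Share of each gene's coding 31-base words that also occur in another gene (horizontal axis, percent) against its counts per kilobase of exon summed over the 68 libraries (vertical axis, log scale), one point per gene. Eno1, Gapdh, Pgam1 and Pgk1 combine shares of 89.5% to 100% with 0.560 to 444 counts per kb, while Bnip3 stands at 3375 counts per kb with a share of 90.6%.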

How the data were processed

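RNA of laser-captured growth plate zones was amplified by a SMART-seq2 protocol and cut with Tn5, per the labels' protocols. The authors deposited one table of read counts per gene symbol, and the submitters' processing notes name cutadapt, STAR 2.5.2b, Subread, featureCounts 1.5.3 and build mm10. Not given in the sources used here: the annotation, the treatment of reads with several matches and the use of strand. The table has 100 columns for 68 libraries. For 32 libraries 2 columns were added together as runs of one library.

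Libraries of at least 100000 counts were added by animal and zone, since labels name the animal. They were tested with edgeR 4.0.16 (R 4.3.3): TMM scaling, filterByExpr, robust glmQLFit and Benjamini-Hochberg adjustment. The zone fit (21 sums, 8 residual degrees of freedom) modelled zones separately at each age and blocked on animal. The age fit (4 residual degrees of freedom) compared ages zone by zone and carried a term for the deposit set. The xylene fit (10 residual degrees of freedom) added the xylene sums to the ethanol ones, with animal and fixative as a block, so both share one scaling and one spread. Standard errors are the log2 fold change divided by the square root of the F statistic. The block comes from the labels, which give one animal several zones. Deviations from group means of the zones of one animal correlated at -0.002 to 0.184 over 18 pairs. P-values measure the spread between these sums, and where a label speaks of several animals that spread may be partly averaged.

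Alternatives were DESeq2 1.42.0, other scalings, filters and depth minimums, thinning, other treatment of animals, P3 or xylene libraries, and leaving out each animal. The zone, age and xylene fits and the DESeq2 zone fit were tested on simulated counts, and the other steps were not. The member genes and all gene lists were chosen with earlier results of these data known. Values by sum were to be given for each called member gene and for 17 listed ones of known role, with the others by range and counts. Further genes such as Pfkl, Pfkfb3 and Hk1 were named after their values were seen. Promoter windows are from RefSeq (GRCm38.p6), and exon lengths, overlaps and shared 31-base words from GENCODE release M21 (GRCm38). Counting intervals are exact 95% binomial intervals, and the floor for a group at 0 is 3 counts. Both cover counting error only. One gene of the comparison lists is not reported here.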

Additional observations from a re-analysis of the deposited data

Results flagged for a closer look

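The tests for a stray sample looked at the highest and the lowest sum in each P2 group of 4, and 12 of 62 groups of member genes had a flagged sum. Dixon's test flags about 1 group in 20 by chance when values are normally distributed. That rate does not hold near 0, because any count is flagged when all other sums are at 0. This was so for resting Adm, proliferative Epas1 and hypertrophic Gapdh and Pgk1. In 8 of these 12 the sum was the hypertrophic sum of animal G, the deepest P2 animal, standing above the others. These were hypertrophic Adm at 121.825 CPM, Car12 at 212.597 CPM, Epas1 at 158.134 CPM, Gapdh at 0.9555 CPM, Ldhb at 51.1189 CPM, Ndufa4l2 at 61.6293 CPM, Pdk1 at 21.9764 CPM and Pgk1 at 25.7983 CPM. Adm in the resting sum of animal G (0.358 CPM) also stood apart, from 2 counts. In proliferative sums, Epas1 in animal A (6.8395 CPM) and Gapdh in animal D (6.2258 CPM) stood above the rest. Hif1a in the resting sum of animal A (125.766 CPM) stood below the rest. The part of depth in these was not tested.

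Among libraries, the 38 genes together made up 1.171% of the counts outside the 3 dominant symbols in P28 proliferative ethanol replicate 7, above the other 8, from 7 of 598 counts (95% exact interval 0.4719% to 2.397%).

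Tpi1 in resting against hypertrophic at P28 was positive in every ethanol animal (log2 change 1.7155) and negative in both xylene animals (-0.6028), with the difference itself not tested.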

How the results depend on the processing

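Counts of called member genes moved with most choices, and no called gene changed direction. These counts are not set beside the share of all genes called under the same setting. A setting that calls more genes of any kind is therefore not told apart. The same holds for the DESeq2 counts above, apart from that of the resting zone between ages. DESeq2 called 1 gene in resting against hypertrophic and 1 in hypertrophic against proliferative at P2, 1 in resting against hypertrophic at P28, 1 in each of the interactions for hypertrophic against proliferative and resting against hypertrophic, and 5, 1 and 1 in the age comparisons of resting, proliferative and hypertrophic zones. With the P3 animal counted as P2, 5, 2 and 1 were called in resting against hypertrophic, hypertrophic against proliferative and resting against proliferative at P2, and 2 in the resting zone between ages. Resting against proliferative at P28, 4 genes as reported, came to 0 under RLE size factors, under a minimum of 50000 counts outside the dominant symbols, without the filter on low counts, without the replicate block of animals and without the libraries against their animals in sex-linked counts, and to 2 when thinned to one total. It came to 6 under DESeq2 and with trailing labels as separate animals, and to 5 with ethanol and xylene together. Hypertrophic against proliferative at P28, also 4, came to 0 without the replicate block and to 2 with ethanol and xylene together, where resting against hypertrophic had 3. It came to 3 without the libraries against their animals, to 5 under DESeq2 and when thinned, and to 6 with separate trailing labels. Resting against hypertrophic at P2, 2 as reported, came to 1 under RLE size factors, no filter, thinning, removal of the dominant symbols or trailing labels as separate animals, to 0 under the 50000 minimum or without the libraries against their animals, and to 4 without the replicate block. The 50000 minimum also gave 1 in the resting zone between ages, and separate trailing labels 1 in resting against proliferative at P2.

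Leaving out each animal gave 0 to 4 genes in resting against proliferative and 1 to 4 in hypertrophic against proliferative at P28, and 0 to 4 in resting against hypertrophic, 0 to 3 in hypertrophic against proliferative and 0 to 1 in resting against proliferative at P2. It gave 0 to 1 in resting against hypertrophic at P28, 0 to 2 in the resting zone between ages and 0 to 2 in the interaction for resting against hypertrophic. The causes were not tested. The P28 results rest on 3 animals, as do the zone differences at P2, with TMM factors from 0.191 to 2.003 over all sums.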
